A study of Mus musculus with 6 samples.

Results

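The 10 genes described here encode enzymes that build heparan sulfate: the chain polymerases and their relatives Ext1, Ext2, Extl2 and Extl3, the N-deacetylase/N-sulfotransferases Ndst1 and Ndst2, the epimerase Glce, the 2-O-sulfotransferase Hs2st1 and the 6-O-sulfotransferases Hs6st1 and Hs6st2. They were chosen by name, with earlier results of these data known. Their Ensembl identifiers were found in the count tables, so that 10 of 38924 listed genes are members. All 10 passed the filter on low counts that left 13333 genes to test. The RNA came from cartilage of the front part of the nasal septum at embryonic day 14.5, cut by laser from frozen head sections and sequenced. The 3 Apert embryos carried the genotype given as Fgfr2+/S252W; EIIA-Cre, a heterozygous missense allele of a fibroblast growth factor (FGF) receptor gene that models Apert syndrome, with a Cre transgene whose promoter acts broadly in the early embryo. The 3 reference embryos were given as WT, with no allele or transgene named, and both groups were C57BL/6. Each library came from 1 animal, and Apert cartilage was compared with WT cartilage.

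Heparan sulfate is a long sugar chain attached to core proteins such as syndecans, glypicans and perlecan at the cell surface and in the matrix. Its backbone is laid down in the Golgi by a complex of Ext1 and Ext2, and the chain is then modified stepwise, beginning with N-sulfation and going on to epimerisation and O-sulfation. FGF ligands bind their receptors together with heparan sulfate, and the sulfate pattern of the chain affects that binding. Loss of one copy of EXT1 or EXT2 in humans causes multiple cartilage-capped bone growths, which makes this pathway a classical one in cartilage.

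Total counts ran from 6760510 to 10527915 in the Apert libraries and from 8631181 to 10834744 in the WT libraries. The mitochondrial genome took 34.3% to 40.4% of counts in Apert and 28.8% to 30.2% in WT, without overlap. All 13 chondrocyte markers examined, among them Col2a1, Acan and Sox9, were detected, with summed levels of 39188 to 42673 CPM (fragment counts relative to library size) in Apert and 38259.6 to 49006 CPM in WT. The 10 perichondrium and fibrous mesenchyme markers summed to 3021 to 3318 CPM in Apert and 2187 to 2492 CPM in WT, without overlap. The 7 glial markers summed to 207 to 266 CPM in Apert and 281 to 348 CPM in WT, also without overlap, with Foxd3 at 0 in all 6 libraries. Col3a1 and Ogn, both on the perichondrium and fibrous list, passed the edgeR test used below (adjusted p below 0.05), and no other tested marker did. Marker lists of neurons, epithelium, endothelium, macrophages, erythroid cells and muscle each summed to at most 92.9 CPM in any library, with overlapping groups and with Cdh1, Krt14, Myod1 and Myog at 0. The part of these shifts in the results below was not tested, and in bulk tissue fewer cells of a type cannot be told apart from less RNA per cell. Fgfr2 itself was at 521 ± 59.1 CPM in Apert and 632 ± 61.9 CPM in WT (SD, n = 3 each), which does not check the labels, since a missense allele need not alter the transcript level, and it shares exons with Ctbp2.

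Ext2 was the only one of the 10 genes to pass the test between the genotypes: it fell to 0.561 of its WT level in Apert cartilage. No member rose past the threshold. Ext2 was already known from an earlier analysis of these data as the member past it, so the call is not independent of the choice of genes. Of the other 9 genes, 7 had negative log2 fold changes, Glce among them at only -0.01, and the pair with positive ones were Hs2st1 and Hs6st2. With Ext2 that made 8 of 10 negative, beside 48.9% of all tested genes. Without WT replicate 1 or without Apert replicate 3 it was 7 of 10. By edgeR's quasi-likelihood test, with p-values adjusted over all 13333 genes (Benjamini-Hochberg) and a threshold of 0.05, 1 of 10 members was lower and 0 were higher, against 0.0525% of all tested genes lower, 0.398% higher and 0.450% in either direction. All genes split into 53 higher and 7 lower calls, and into 17 higher and 24 lower when scaled by library totals alone. At an unadjusted p below 0.05, 3 members were lower and 0 higher, against 5.01% lower, 6.35% higher and 11.4% either way among all tested genes. The limma-voom fit called Ext2 alone of the 10, where it called 0.510% of the 13333 genes. DESeq2 called Ext2 alone of the 9 members to which it gave an adjusted p, all but Hs6st1, where it called 2.72% of the 7570 genes with one. The median log2 fold change of the 10 genes was -0.42, beside 0.01 over all tested genes. It ran from -0.51 to -0.31 in the fits that left out 1 library.

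**Figure D1:**
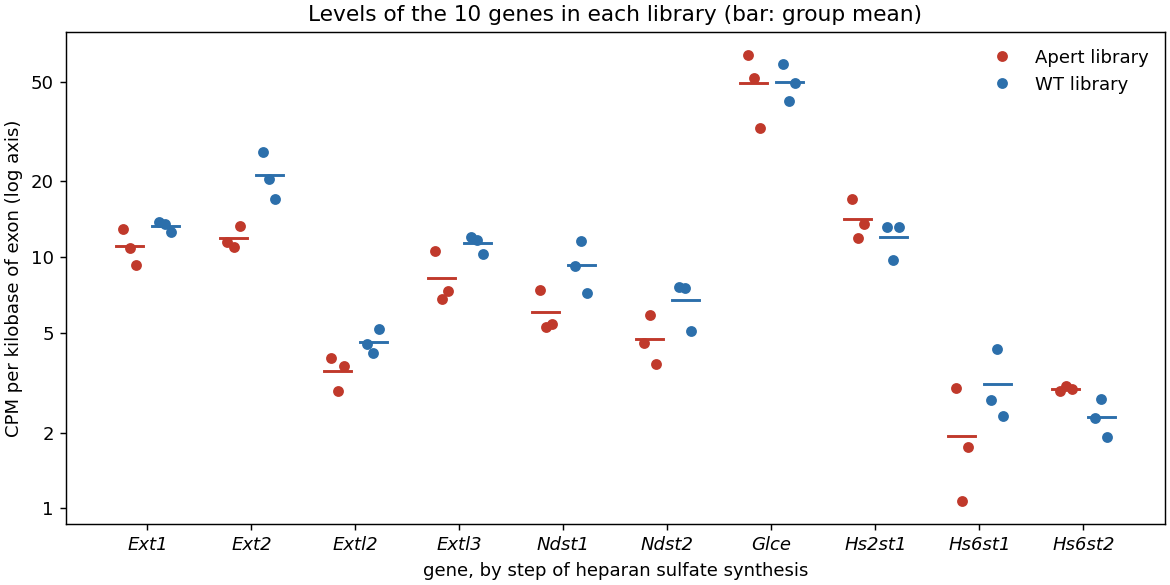
Level of each of the 10 genes in each library, in CPM per kilobase of exon on a log axis; points are libraries, with Apert left of WT for each gene, and bars are group means. Glce stands highest and the Hs6st genes lowest, and the Apert and WT points are separate for Ext2, Extl2 and Hs6st2.

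Per kilobase of annotated exon, a rough scale for comparing genes, levels spanned a wide range within the pathway. This scale counts every annotated exon of a gene, used or not, and does not correct for GC content. Glce, the epimerase that converts glucuronic acid in the chain to iduronic acid, was highest at 49.4 ± 15.7 CPM per kilobase in Apert and 49.9 ± 8.45 in WT (SD, n = 3 each), above 96.8% of the tested genes. In WT the order went on with Ext2 (21.2 ± 4.68), Ext1 (13.3 ± 0.693), Hs2st1 (12.0 ± 2.0), Extl3 (11.3 ± 0.927) and Ndst1 (9.32 ± 2.18). Ndst2 (6.71 ± 1.44), Extl2 (4.60 ± 0.516), Hs6st1 (3.11 ± 1.06) and Hs6st2 (2.31 ± 0.403) closed it. In WT the libraries of Glce and Ext2 and those of Ext2 and Ext1 did not overlap, whereas each later neighbour in this order overlapped the next. In Apert the order was Glce, Hs2st1, Ext2, Ext1, Extl3, Ndst1, Ndst2, Extl2, Hs6st2 and Hs6st1, and there Glce alone was apart from its neighbour. The sum of the 10 levels was 114 ± 22.3 CPM per kilobase in Apert and 134 ± 14.3 in WT, with overlapping libraries, and Ext2 made up 8.36%, 9.93% and 14.1% of it in Apert replicates 1 to 3, against 17.5%, 16.0% and 13.7% in WT replicates 1 to 3.

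Ext2, the partner of Ext1 in the polymerase complex, was counted at 850, 588 and 598 fragments in Apert replicates 1 to 3, against 2212, 1553 and 1145 in WT replicates 1 to 3. Scaled to library size these were 84.5, 80.2 and 97.1 CPM in Apert, against 192, 150.1 and 124 CPM in WT. Every Apert library was below every WT library, and the WT libraries were the more spread out. The fall was -0.83 on the log2 scale, with a standard error of 0.17, a 95% interval of -1.19 to -0.48 and an adjusted p of 0.0363 (edgeR quasi-likelihood; n = 3 each). Leaving out 1 library kept the call in 1 case of 6: without Apert replicate 1 the edgeR adjusted p was 0.0237, when 1.65% of all tested genes were called. It was 0.250 without Apert replicate 2, 0.0897 without Apert replicate 3, 0.213 without WT replicate 1, 0.0764 without WT replicate 2 and 0.0523 without WT replicate 3, with log2 fold changes from -0.97 to -0.65 over the 6 fits. In the same 5 fits 0.0142%, 0.0779%, 0.109%, 0.168% and 0.00% of all tested genes were called. After correction for GC content the log2 fold change was -0.71 (standard error 0.17) and the edgeR adjusted p was 0.153, when 5 genes were called in all.

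In the count tables Ext2 (ENSMUSG00000027198) spans 93661028 to 93822568 on chromosome 2 (mm10, minus strand) and has 7328 bases of exon. It shares no exon with another gene in those tables. The homeobox gene Alx4 lies partly within its span on the opposite strand, and counting ignored strand, but the nearest exons of the 2 genes are 6674 bases apart. Alx4 was at 69.6 ± 3.52 CPM in Apert and 67.6 ± 6.61 CPM in WT (SD, n = 3 each; log2 fold change 0.04, edgeR adjusted p = 0.953). The 250 bases before the annotated start of Ext2 are shown because it is the member that fell. They are from RefSeq on GRCm38.p6, chr2:93822569-93822818 on the minus strand, written 5′ to 3′ toward the start, and capitals mark matches to 2 of 5 short motifs searched on both strands.
Ext2 promoter: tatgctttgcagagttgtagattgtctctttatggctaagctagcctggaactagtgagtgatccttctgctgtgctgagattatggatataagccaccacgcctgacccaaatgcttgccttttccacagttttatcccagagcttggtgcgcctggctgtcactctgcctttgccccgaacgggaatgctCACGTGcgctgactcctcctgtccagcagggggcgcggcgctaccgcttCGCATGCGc
The capitals nearest the start are an NRF1-type match, GCATGCG, which overlaps its own match on the other strand, and the others are an E-box, CACGTG, that begins 58 bases before the start. NRF1-type matches were in 3.02% and E-boxes in 6.02% of the 32851 promoters of the same length compared, and among the 7 members with a promoter entry Ext2 alone had the first, while Ext2 and Extl2 had the second. An ETS-type motif, CCGGAA, a GC box, GGGCGG, and a TATA motif, TATAAA, had no match in this window, against 12.0%, 32.7% and 12.4% of all promoters. A match is a string of letters and no evidence of binding.

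Ext1, which carries most of the polymerase activity of the complex, did not pass the test. It was at 104, 87.6 and 74.9 CPM in Apert replicates 1 to 3, against 112, 109.7 and 101 CPM in WT replicates 1 to 3. Apert replicate 1 lay above WT replicate 3, so the groups overlapped. Its log2 fold change was -0.27 with a 95% interval of -0.60 to 0.06 (edgeR adjusted p = 0.536), and it was -0.44 without Apert replicate 1 and -0.17 without Apert replicate 3. The ratio of Ext2 to Ext1 per kilobase was 0.891, 1.01 and 1.43 in Apert replicates 1 to 3, against 1.89, 1.51 and 1.35 in WT replicates 1 to 3. Apert replicate 3 thus had a higher ratio than WT replicate 3, and whether Ext2 changed more than Ext1 was not tested. Ext1 lies on chromosome 15 from 53064038 to 53346159 (mm10).

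The EXT-like genes had negative log2 fold changes that did not pass. Extl3, whose enzyme adds the first N-acetylglucosamine that commits a linker to heparan sulfate, was at 63.1, 40.5 and 43.9 CPM in Apert, against 71.7, 70.2 and 61.4 CPM in WT. Apert replicate 1 was above WT replicate 3, and the other Apert libraries were below all WT libraries. The log2 fold change was -0.46 with a 95% interval of -0.85 to -0.07, which leaves out 0 before adjustment over all genes (edgeR adjusted p = 0.351, and 0.0504 without Apert replicate 1, at -0.72). Extl2, an N-acetylglucosamine transferase known to act on the phosphorylated linker and stop chain growth, was at 13.6, 10.1 and 12.7 CPM in Apert, against 15.5, 14.3 and 17.8 CPM in WT. Its groups did not overlap, but it was low, at 74 to 137 counts per Apert library, and the log2 fold change of -0.38 had an interval of -0.90 to 0.14 (adjusted p = 0.595). Together with Ext2 and, in the other direction, Hs6st2, 3 of 10 members had groups that did not overlap, where 16.6% of all tested genes did (7.70% lower and 8.92% higher in Apert).

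The N-deacetylase/N-sulfotransferases open the modification of the chain, since later enzymes act mainly where they have placed N-sulfate. Ndst1 was at 45.0, 32.1 and 32.8 CPM in Apert replicates 1 to 3, against 55.7, 70.3 and 43.8 CPM in WT replicates 1 to 3. The highest Apert library was just above the lowest WT library. The log2 fold change was -0.62 with a 95% interval of -1.05 to -0.19 and did not pass (edgeR adjusted p = 0.231, and between 0.0504 and 0.649 in the fits lacking 1 library). Ndst2 was at 15.0, 19.5 and 12.3 CPM in Apert, against 25.02, 24.8 and 16.7 CPM in WT, again with overlap. Its log2 fold change was -0.51 with an interval of -1.02 to 0.01 (adjusted p = 0.458). Per kilobase, Ndst1 stood to Ndst2 at 1.33 ± 0.384 in Apert and 1.39 ± 0.167 in WT (SD, n = 3 each). The related genes Ndst3 and Ndst4 had at most 11 counts and 1 count in any library.

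Glce and Hs2st1 act in sequence on the uronic acid of the chain. Glce was at 296, 238 and 152 CPM in Apert replicates 1 to 3, against 272, 194 and 227 CPM in WT replicates 1 to 3. Apert held both the highest and the lowest library, and the log2 fold change of -0.01 had a 95% interval of -0.42 to 0.40 (edgeR adjusted p = 0.992). Changes within those bounds remain possible. Larger ones can also miss the threshold, as Ndst1 did at -0.62 with a standard error of 0.20. The sign of Glce was positive without WT replicate 1 (0.12), without Apert replicate 3 (0.20) and with a correction for gene length (0.010). Hs2st1, which sulfates iduronic acid, was at 83.6, 58.4 and 66.8 CPM in Apert, against 64.6, 47.6 and 64.8 CPM in WT. The groups overlapped at a log2 fold change of 0.24 with an interval of -0.14 to 0.62 (adjusted p = 0.666), and it was 0.054 without Apert replicate 1 and 0.11 without WT replicate 2.

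The 6-O-sulfotransferases add a sulfate that takes part in FGF receptor signalling, and both were weakly expressed. Hs6st1 was at 11.2, 3.96 and 6.50 CPM in Apert replicates 1 to 3, against 9.99, 16.0 and 8.68 CPM in WT replicates 1 to 3, from as few as 29 counts. Apert replicate 1 was above 2 of the WT libraries. Its log2 fold change of -0.66 had the widest interval of the 10, -1.43 to 0.10 (edgeR adjusted p = 0.516). It was -1.19 without Apert replicate 1, -0.37 without Apert replicate 2 and -0.35 without WT replicate 2. Hs6st2 was at 22.8, 24.0 and 23.2 CPM in Apert, against 17.8, 21.3 and 15.0 CPM in WT. All Apert libraries were above all WT libraries, and the log2 fold change of 0.37 had an interval of -0.08 to 0.83 (adjusted p = 0.541). The ratio of Hs6st2 to Hs6st1 per kilobase was 0.965, 2.89 and 1.70 in Apert replicates 1 to 3, against 0.849, 0.631 and 0.822 in WT replicates 1 to 3, every Apert library above every WT library, and was given no test. Hs6st3 had at most 15 counts in any library.

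**Figure D2:**
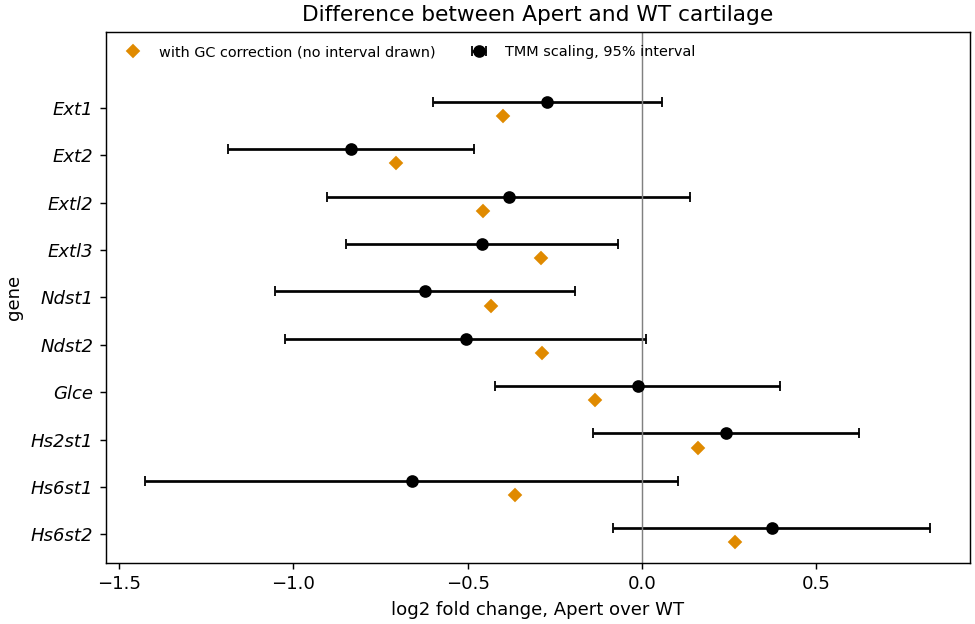
Log2 fold change of each gene, Apert over WT, with its 95% interval from the edgeR fit (circles), and the value after correction for GC content (diamonds). The interval of Ext2 lies farthest below 0, at -1.19 to -0.48, and those of Ndst1 and Extl3 also leave out 0 before adjustment over all genes.

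The GC-rich members had the more negative fold changes, and GC-rich genes as a whole were also lower in Apert. The 5 members with GC content from 53.1% to 57.7% (Ext2, Extl3, Ndst1, Ndst2 and Hs6st1) had log2 fold changes from -0.83 to -0.46, and the 5 members from 44.04% to 45.9% (Glce, Ext1, Hs6st2, Hs2st1 and Extl2) from -0.38 to 0.37. Over all tested genes the median was -0.16 for the 5760 genes at 50% GC or more and 0.12 for the 7432 genes below it. In the bin from 52% to 54%, which holds Ext2, the median was -0.12 with quartiles of -0.34 and 0.13, so that Ext2 was below the lower quartile of its bin. When a smooth GC trend was taken out of each library, the log2 fold changes were -0.71 for Ext2, -0.46 for Extl2, -0.43 for Ndst1, -0.40 for Ext1, -0.37 for Hs6st1, -0.29 for Extl3, -0.29 for Ndst2, -0.14 for Glce, 0.16 for Hs2st1 and 0.27 for Hs6st2. None passed the edgeR test then, when 0.0375% of all tested genes were called in either direction. Without adjustment, 3 members were lower at an edgeR p below 0.05 (Ext2, Ext1 and Ndst1) and 0 higher. Of all 13333 tested genes, 996 were below that p in either direction. The median of the 10 was -0.33 after this correction, beside 0.00 over all genes.

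**Figure D3:**
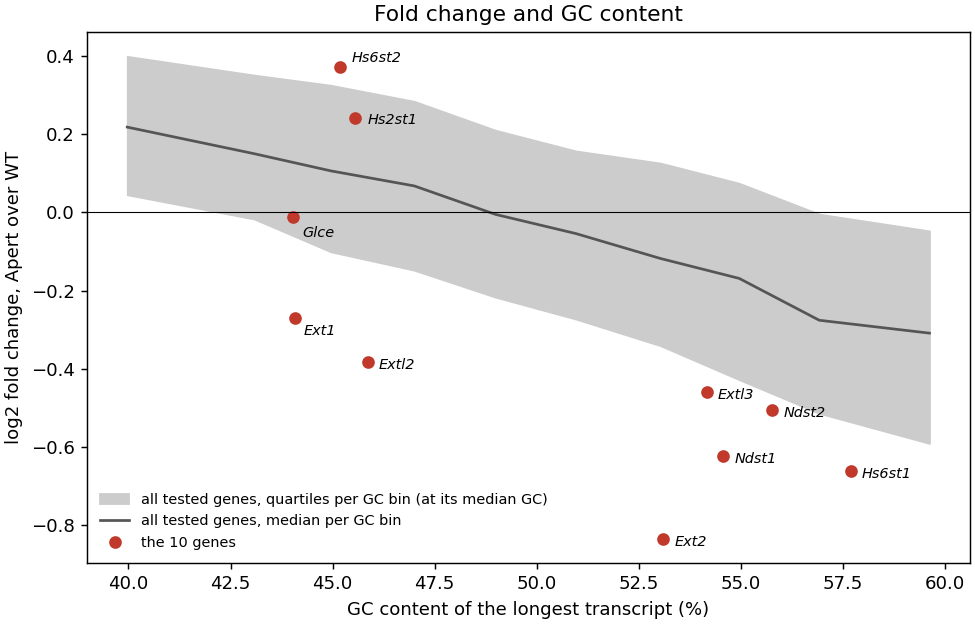
Log2 fold change, Apert over WT, against GC content of the longest transcript in percent; the line and band are the median and quartiles of all tested genes in bins of GC content, and points are the 10 genes. The line falls across the plot, the 5 GC-rich members lie below -0.45, and Ext2 lies well under the band.

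The genes with the profile nearest to that of Ext2 over the 6 libraries were Rxra, a nuclear receptor, Slc45a4, Pink1, a mitochondrial kinase, Zfp408 and Lancl1. They were the 5 nearest of 7157 genes at 10 CPM or more, with root mean square distances of 0.126 to 0.160 in log2 CPM after each profile was centred on its mean. The distance used the libraries of both groups, so their lower level in Apert follows from how they were chosen. Rxra was at 40.5, 32.2 and 37.5 CPM in Apert replicates 1 to 3, against 69.1, 61.8 and 49.0 CPM in WT replicates 1 to 3, a log2 fold change of -0.71. None of the 5 passed the edgeR test (adjusted p from 0.107 to 0.254), and Pink1 shares exons with Gm27646 and Mir7019.

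Among 57 other genes of heparan sulfate synthesis, donor supply, editing, breakdown and core proteins, 47 were tested, and 1 was called lower and 0 higher by edgeR, while 46 did not pass, beside 0.0525% of all tested genes lower and 0.398% higher. At an unadjusted p below 0.05, 9 were lower and 1 higher, beside 5.01% lower and 6.35% higher among all tested genes, and DESeq2 called the same 1 gene. The gene that fell was Sdc4, a syndecan core protein that carries heparan sulfate chains, at 49.8, 44.6 and 39.8 CPM in Apert, against 66.5, 115 and 92.1 CPM in WT (log2 fold change -1.02, edgeR adjusted p = 0.0248). Its adjusted p was 0.118 without WT replicate 2, 0.120 without WT replicate 3, 0.215 without Apert replicate 2, 0.149 without Apert replicate 3 and 0.0642 after correction for GC content, where the log2 fold change was -1.001. The 47 genes had a median log2 fold change of -0.11, and 33 were negative (70.2%, beside 48.9% of all tested genes). That median was -0.23 without Apert replicate 1 and -0.18 without Apert replicate 2, but -0.086 without WT replicate 1 and -0.081 without WT replicate 3. The negative genes were 29 of 47 without WT replicate 1, 29 of 48 without Apert replicate 3 and 34 of 48 without WT replicate 3. Core proteins made up 11 of the 47 tested genes, with 1 called lower. The 36 without core proteins had a median of -0.08 and none called by edgeR or DESeq2. At an unadjusted edgeR p below 0.05, 4 of the 36 were lower and 0 higher. Their median was -0.19 without Apert replicate 1, -0.17 without Apert replicate 2 and -0.12 without WT replicate 2.

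The linkage enzymes, which build the short sugar bridge to the core protein, were all tested, 7 of 7, and none passed. The pair with the smallest p were Fam20b, the xylose kinase of the linker, at 61.7 ± 7.58 CPM in Apert and 74.9 ± 8.25 CPM in WT, and Pxylp1, a phosphatase that acts on the same xylose, at 47.8 ± 12.2 CPM in Apert and 59.4 ± 1.08 CPM in WT. The log2 fold change of Fam20b was -0.28, and -0.42 after correction for GC content. For Pxylp1 these values were -0.31 and -0.23. Sulfate and nucleotide sugar supply held 14 tested genes, none of which passed. Slc35b2, the Golgi transporter of the activated sulfate donor PAPS that sulfotransferases use, was at 9.15, 6.55 and 7.80 CPM in Apert, against 14.2, 16.4 and 13.1 CPM in WT. Its groups did not overlap, and at a log2 fold change of -0.89 it did not pass (edgeR adjusted p = 0.178). It has a GC content of 59.8%, and its log2 fold change was -0.57 after correction for GC content. Slc35d1, a transporter of nucleotide sugars, had a log2 fold change of -0.33 (adjusted p = 0.437), and of -0.44 after correction for GC content (edgeR adjusted p = 0.408).

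Of the 3-O-sulfotransferases, which add the rarest sulfate of the chain, 3 of 7 were tested and none passed. Hs3st3b1 was the most expressed at 116 ± 27.5 CPM in Apert and 156 ± 10.3 CPM in WT (SD, n = 3 each; log2 fold change -0.42, edgeR adjusted p = 0.329). In the edgeR fits lacking 1 library its adjusted p ran from 0.0334 to 0.631. The lowest was without Apert replicate 1, when 1.65% of all tested genes were called. Hs3st3a1 was at 63.8 ± 12.6 CPM in Apert and 76.2 ± 9.08 CPM in WT and shares exons with F930015N05Rik. No fragment of Hs3st2 or Hs3st4 was counted in any library, where a floor of 3 counts is 0.487 CPM in the shallowest library.

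Enzymes that edit or degrade the finished chain did not pass either, with 3 of 4 extracellular and 8 of 8 lysosomal genes tested. Sulf2, which removes 6-O-sulfate outside the cell, was at 389, 311 and 407 CPM in Apert, against 482, 551 and 459 CPM in WT. Its groups did not overlap, at a log2 fold change of -0.43 (standard error 0.14, edgeR adjusted p = 0.231), and it shares exons with Ncoa3. After correction for GC content its log2 fold change was -0.29. Hpse2, a relative of heparanase, was at 77.5 ± 9.25 CPM in Apert and 68.1 ± 9.91 CPM in WT. The lysosomal genes with the smallest p were Idua (log2 fold change -0.30, adjusted p = 0.634) and Naglu (-0.87, adjusted p = 0.642, with at most 21 counts in any library). Extl1, the remaining EXT-like gene, was at 13.1 ± 1.95 CPM in Apert and 15.5 ± 5.45 CPM in WT. Among core proteins Sdc2, another syndecan, was at 59.9 ± 4.87 CPM in Apert and 39.1 ± 7.49 CPM in WT (SD, n = 3 each; log2 fold change 0.62, edgeR adjusted p = 0.169), with no overlap. Of the 11 core proteins tested, Sdc2 alone was higher in Apert without overlap, beside 8.92% of all tested genes. Lower without overlap were 4, beside 7.70% of all tested genes: Sdc4 and 3 that did not pass. These were the syndecans Sdc3 (log2 fold change -0.64, edgeR adjusted p = 0.169), which shares exons with Gm12970 and Gm26716, and Sdc1 (-0.58, adjusted p = 0.324), and the glypican Gpc1 (-0.88, adjusted p = 0.329). After correction for GC content their log2 fold changes were -0.33 for Sdc3, -0.37 for Sdc1, -0.57 for Gpc1 and 0.43 for Sdc2.

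**Figure D4:**
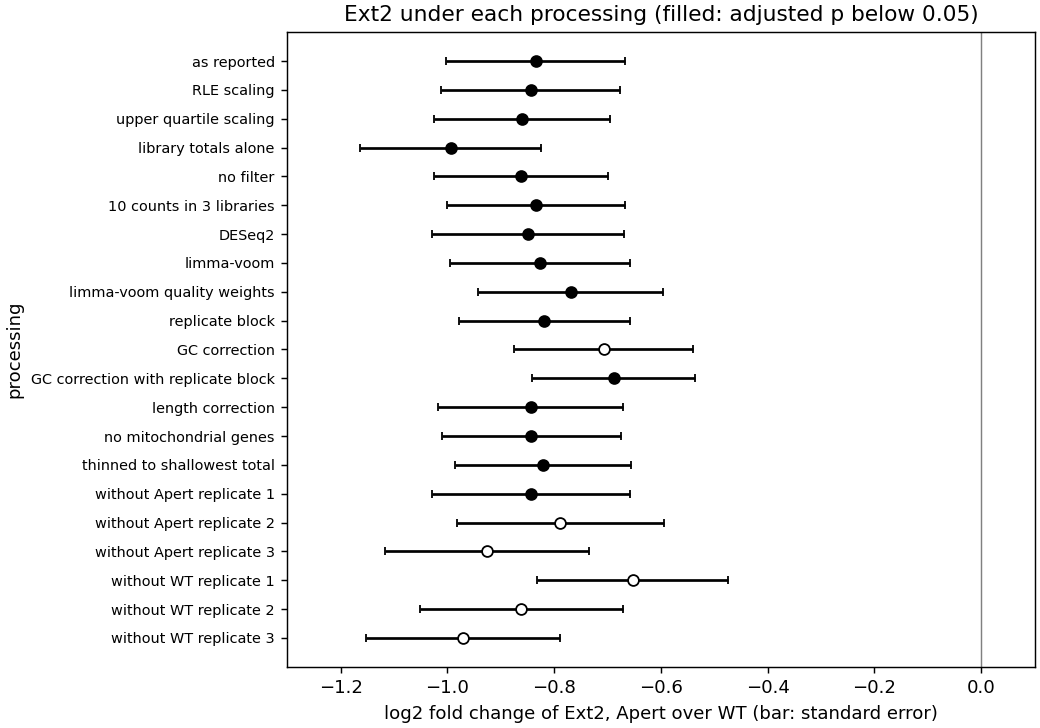
Log2 fold change of Ext2, Apert over WT, with its standard error under the reported processing and under each of 20 alternatives; filled circles mark an adjusted p below 0.05. All values lie between -0.99 and -0.65, and the open circles are the GC correction without a block and 5 of the 6 fits that leave out 1 library.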

How the data were processed

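RNA was measured in 6 libraries, each from 15 ng of RNA amplified to cDNA before tagmentation and sequenced as 100-bp read pairs, per the labels' protocols. The authors' deposited values are whole-number fragment counts per Ensembl gene from featureCounts 1.4.4, over exons of Ensembl release 75 models (GRCm38) and without regard to strand, per the file headers. The tools listed were cutadapt and STAR 2.5.2b, and the build was mm10, per the submitters' processing notes. No molecular identifiers were described, so floors cover counting error only, while the 95% intervals come from the edgeR fit and take in the spread between animals. Amplification can shift transcripts by GC content. Of the identifiers, 37607 of 38924 matched a symbol, with Bpnt2 matched through a RefSeq synonym.

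Counts were fitted in R 4.3.3 with edgeR 4.0.16 (filterByExpr, TMM, glmQLFit, glmQLFTest). The code was also run on simulated counts that had less spread between libraries than these data and no GC trend. That run does not check the results given here. CPM uses TMM-scaled totals. Standard errors are the log2 fold change over the square root of F. Alternatives used DESeq2 1.42.0, limma 3.58.1, other scalings and filters, mgcv 1.9.3 offsets for GC content (GENCODE M21, 13192 tested genes) or length, and each library left out. The members and lists were chosen with earlier results of these data known. Named beside the members were called pathway genes, otherwise the 2 smallest p per role, and the 5 profiles nearest Ext2. Ndst3, Ndst4, Hs6st3, Hs3st2, Hs3st4, Sdc1, Sdc3, Gpc1, Alx4 and marker genes were named after values were seen.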

Additional observations from a re-analysis of the deposited data

How the results depend on the processing

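Of 20 alternatives, 14 left Ext2 on the same side of the threshold. Correction for GC content did not: Ext2 was then at -0.71 (adjusted p = 0.153), with 0 members and 0 other pathway genes called by edgeR. In that fit 3 members, 5 other pathway genes and 996 genes in all had an unadjusted p below 0.05. With each library left out in turn Ext2 ran from -0.97 to -0.65 with 0 to 1 members, 0 to 3 other pathway genes and 0 to 229 genes called in all. The 0 in all was without WT replicate 3 (edgeR, 1376 genes at an unadjusted p below 0.05). Against 60 genes, no filter called 247 and 3 other pathway genes, DESeq2 206, limma-voom with quality weights 104 and GC correction 5. The replicate number as a block called 172 genes in place of 60 and gave -0.82 for Ext2 (adjusted p = 0.0103), changing no other call among the members. With GC correction and the replicate block Ext2 was at -0.69 (adjusted p = 0.0470). The labels do not say that equal numbers mark a shared litter or day. Same-numbered libraries deviated together at r = 0.19, 0.02 and 0.09, and not every library correlated best with its own number. Glce, at -0.28 to 0.20 with each library left out, changed sign in 3 alternatives (0.010 with the length correction, 0.12 without WT replicate 1 and 0.20 without Apert replicate 3), as did Extl1, at -0.41 to 0.082 (0.041 with GC correction, 0.058 with GC correction and the replicate block, and 0.082 without WT replicate 2). Scaling by library totals alone put the median of all genes at -0.145 (0.01 as reported), that of the members at -0.58 (-0.42) and Ext2 at -0.99. The cause of these shifts was not tested. Depth limits Hs6st1, Extl2 and Ndst2 most, whose fewest counts in any library were 29 for Hs6st1, 74 for Extl2 and 76 for Ndst2.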
